A study of Homo sapiens with 42 samples.

Results

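The domain of MYC and PVT1 was taken as the stretch chr8:127000000-130500000 of the human genome (build GRCh38, hg38), and its members as the deposited chromatin loops with both anchors starting inside it. There were 71 such loops among 33914 in the whole table. Of these, 22 had an anchor start between chr8:127700000 and chr8:127800000, an interval of 100 kb that holds MYC (chr8:127735434-127742951) and the start of PVT1 (chr8:127794524-128101256), and it is called the MYC interval here. The members were set by position alone, though the choice was made with earlier results of these data known. A loop is a pair of anchors, each 10 kb wide, and its measurement is the number of Hi-C contacts between them.

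MYC encodes a transcription factor that drives cell growth and division and is often activated in leukemia. The stretch downstream of it holds few protein-coding genes. It contains the long noncoding RNA gene PVT1, whose promoter is known to compete with that of MYC for enhancers, and farther on CCDC26, in whose neighbourhood lies a cluster of enhancers that controls MYC in blood cells. A chromatin loop brings such distant sites together in the nucleus, and a loop seen in Hi-C is a pair of anchors that touch more often than their surroundings.

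In situ Hi-C cuts the DNA of fixed nuclei, joins ends that are near each other in space and sequences the joined pairs. The cells were K562, an established human leukemia line with the genotype labelled WT, grown with 25 nM PMA for 0 h, 6 h or 72 h. PMA is a phorbol ester that activates protein kinase C and drives K562 cells towards megakaryocytes, the parent cells of platelets. Each time had 4 biological replicates of this 1 line, and no other treatment or genotype was compared, so that the 0 h cells served as the control. Replicates 1 and 2 had 3 technical replicates each, and replicates 3 and 4 had 2, each sequenced in 2 runs. No RNA was measured in these samples, so the levels of MYC and PVT1 RNA are not known here. In a mixed culture, a loop that weakens in every cell and a loop that persists in fewer cells cannot be told apart.

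After technical replicates had been summed, the 12 libraries held 736929 to 1472197 contacts over all loops. Counts below are normalized counts, that is, contacts per 1000000 contacts in the tested loops of a library after TMM scaling. Between replicates 3 and 4 of 72 h no difference beyond sampling noise was found (their chi-square over loops was 1.003 times its degrees of freedom) so they count once in every mean ± SD, which leaves n = 3 at 72 h. In the tests they stayed separate libraries. Replicates 3 and 4 were also close to each other at 0 h and 6 h, at 1.018 and 1.023 times (chi-square p = 0.0253 and 0.00621). At those times they count separately in the means. All other pairs within a time were at 1.06 to 1.27 times. The labels do not say whether the biological replicates came from separate cultures, so the p-values measure the spread between these libraries. Of the 71 domain loops, 62 had enough contacts to be tested (21 of the 22 with an anchor in the MYC interval), and the other 9 were not tested. The median normalized count of the tested domain loops was 18.8, against 29.4 over all 24132 tested loops. Domain loops were also longer, with a median length of 740 kb against 440 kb over all loops, tested or not. Up to 500 kb the median count of tested loops was 40.1 in the domain and 38.4 over all loops. It was 18.3 against 14.9 over 500 and up to 1000 kb, and 11.4 against 11.7 above that. The exact 95% Poisson interval of a single count of 20 contacts is 12.2 to 30.9, and that of 10 contacts is 4.80 to 18.4, for counting error only.

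The 71 loops shared 76 anchors, and most of these anchors belonged to few loops: 46 of them to 1 loop each and 8 to 4 or more. The hub at the MYC end was the anchor chr8:127730001-127740000, which holds the start of MYC and the end of the noncoding gene CASC11 (chr8:127700608-127733967) and took part in 10 loops. The hub at the far end was the anchor chr8:129680001-129690000, which holds the end of CCDC26 (chr8:129351694-129680239) and also took part in 10 loops. The start and end of a gene mean its lowest and highest position throughout. Strand was not at hand, so an end named here may be the site where transcription begins. The 2 hubs were joined to each other by a loop of 1950 kb. The 22 loops of the MYC interval pointed almost entirely downstream: 20 led from the interval to anchors beyond it, 1 stayed inside it, and 1 led upstream to the noncoding gene CCAT2. Of 27 genes and noncoding RNAs of the stretch that were looked for, 26 were found in the RefSeq table and 11 had an end in a loop anchor. An end of MYC lay in 12 of the loops and an end of PVT1 in 1, while an anchor overlapped the body of PVT1 in 17.

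**Figure D1:**
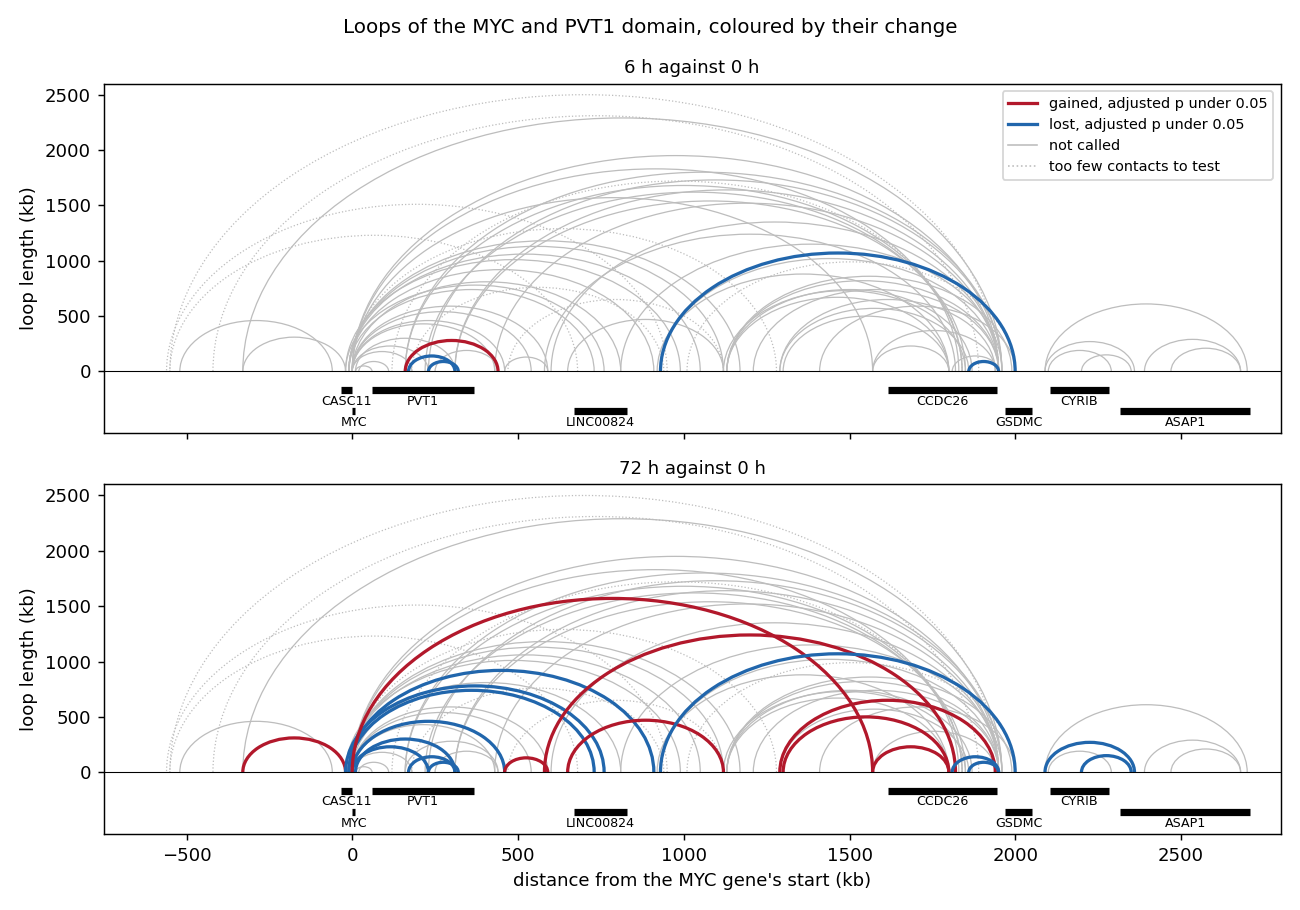
Each arc is 1 of the 71 domain loops, drawn between the centres of its anchors at their distance in kb from the start of the MYC gene, with its height equal to the loop length in kb; the upper panel shows 6 h against 0 h and the lower panel 72 h against 0 h, and black bars mark genes. At 6 h the 5 called loops, 1 gained and 4 lost, all start beyond the MYC interval; at 72 h 13 loops are lost and 8 gained, and the lost loops of the MYC interval end between 230 and 910 kb downstream.

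The first question was which contacts changed early and which late. At 6 h, 5 of the 62 tested domain loops changed (edgeR quasi-likelihood test, adjusted p under 0.05; 8.06%), 1 gained and 4 lost, while 6.41% of all tested loops changed in the same comparison (2.34% gained and 4.07% lost). None of the 21 tested loops of the MYC interval was among them: edgeR called 0 and DESeq2 called 0, with 2 and 1 at an unadjusted p under 0.05. At 72 h against 0 h, 21 of 62 domain loops changed (33.9%), 8 gained and 13 lost, where the background over all tested loops was 33.6% (16.7% gained and 16.9% lost). Over all lengths together, the domain thus changed about as often as loops did elsewhere at both times. By length class the shares at 72 h lay apart. Up to 500 kb, 56% of tested domain loops changed, against 35.9% of all tested loops. Over 500 and up to 1000 kb it was 23.5% against 24.2%, and above that 15% against 36.6%. At 6 h these shares were 16% against 7.53%, 0% against 3.26% and 5% against 2.52%. The differences were not tested. Between 6 h and 72 h, 14 domain loops changed, 2 gained and 12 lost, where the background was 20.5% (10.7% gained and 9.81% lost). Without replicate 1 of 6 h this last count was 7.

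Lost loops outnumbered gained ones in the domain at 72 h, while the rest of chromosome 8 had more gained than lost loops. Among the 1287 tested loops of chromosome 8 outside the domain, 284 were gained and 150 lost at 72 h, and the median 72 h change over them was 0.13 (log2). In the domain the median was -0.09, and in the MYC interval -0.14. The difference in balance was not tested. In the MYC interval 2 loops were gained and 6 lost at 72 h with edgeR, and 0 and 5 with DESeq2. With libraries scaled to the rest of chromosome 8, the domain had 5 gained and 16 lost loops at 72 h and the MYC interval 1 gained and 7 lost, and with a correction for loop length these counts were 5 and 21, and 1 and 8. Over all tested loops these 2 fits called 8492 and 7151 at 72 h, where the main fit called 8105. Because the median change over the rest of chromosome 8 was above 0, scaling to it lowers the values of the domain. At 6 h, scaling to total counts gave 3 gained and 4 lost domain loops, with 1500 calls over all tested loops. In 11 domain loops every library of 72 h lay below every library of 0 h and in 7 every one lay above, where 14.1% and 14.2% of all tested loops did so.

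Over the mean of all libraries, the loops between MYC and the first part of PVT1 were the strongest of the domain, although at 0 h alone loop18755 within CCDC26, with 101 ± 8.33 normalized counts (SD, n = 4), ranked above all but the first. The changes of these loops between MYC and the first part of PVT1 did not pass the test at either time. They are short, and their rank among tested loops within 10% of their length was lower. The mean counts of loop18716, loop18718 and loop18706 lay at percentiles 57.9, 69.4 and 81.4 there. The long loop18715 and loop18714 lay at 94 and 91.7. The loop from the end of MYC (chr8:127740001-127750000) to the anchor with the start of PVT1 and the microRNA gene MIR1204 (chr8:127790001-127800000), loop18716, spanned 50 kb and had normalized counts of 119, 88.3, 118 and 114 at 0 h, 99, 102, 102 and 96.5 at 6 h and 85.8, 119, 102 and 104 at 72 h. Replicate 2 of 0 h was the lowest of its group and lay below all of 6 h, while the other 0 h libraries lay above all of 6 h. The 72 h libraries overlapped both. Its log2 fold change was -0.13 ± 0.11 (SE; adjusted p = 0.555) at 6 h and -0.09 ± 0.11 (SE; adjusted p = 0.537) at 72 h. The next strongest, loop18718 (chr8:127750001-127760000 to chr8:127840001-127850000, 90 kb), ran from just past MYC into the body of PVT1. It had 89.4 ± 6.60 (SD, n = 4) at 0 h, 86.7 ± 21.2 (n = 4) at 6 h and 91.1 ± 6.75 (n = 3) at 72 h, with log2 fold changes of -0.08 ± 0.12 (SE; adjusted p = 0.785) and 0.05 ± 0.12 (SE; adjusted p = 0.79).

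Of the loops from MYC deeper into PVT1, those with the farther partners fell. Loop18706, from the MYC start anchor (chr8:127730001-127740000) to chr8:127910001-127920000 (180 kb), had 80.3 ± 15 (SD, n = 4) at 0 h, 61.3 ± 8.43 (n = 4) at 6 h and 68.7 ± 9.29 (n = 3) at 72 h and did not pass the test at 6 h (-0.35 ± 0.13 (SE; adjusted p = 0.0931)) or 72 h (-0.14 ± 0.13 (SE; adjusted p = 0.391)). Loop18707, from the same anchor to that of the microRNA gene MIR1205 inside PVT1 (chr8:127960001-127970000, 230 kb), had normalized counts of 63, 49.4, 67.7 and 48.9 at 0 h, 37.3, 43.9, 50.9 and 48.3 at 6 h and 30.1, 31.1, 54.1 and 44.6 at 72 h. Replicates 1, 2 and 4 of 72 h lay below all of 0 h, while replicate 3 overlapped them. It fell by 72 h, with a log2 fold change of -0.51 ± 0.15 (SE; adjusted p = 0.00446). That change was -0.88 (adjusted p = 7.19e-04) within replicates 1 and 2 and -0.23 (adjusted p = 0.455) within replicates 3 and 4.

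The loop of MYC that fell most evenly across libraries led to the anchor of the microRNA gene MIR1207, near the far end of PVT1. Loop18717 (chr8:127740001-127750000 to chr8:128040001-128050000, 300 kb) joined the end of MYC to it and had normalized counts of 43.5, 45.6, 42.7 and 47.8 at 0 h, 38.2, 34.6, 34 and 35 at 6 h and 21.2, 27.1, 27 and 19.6 at 72 h. Each time lay below the one before with no overlap between libraries. The log2 fold change was -0.32 ± 0.16 (SE; adjusted p = 0.252) at 6 h, which did not pass the test, and -0.87 ± 0.17 (SE; adjusted p = 1.53e-05) at 72 h, which did. It was -0.86 (adjusted p = 0.00311) within replicates 1 and 2 and -0.91 (adjusted p = 0.00412) within replicates 3 and 4. Only 1.46% of the loops within 10% of its length had a lower 72 h value. From 6 h to 72 h it fell by 0.56 on the log2 scale (adjusted p = 0.0193), a call that was lost without replicate 1 of 6 h (adjusted p = 0.0607) and without replicates 1 (0.0595) or 4 (0.0704) of 72 h.

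**Figure D2:**
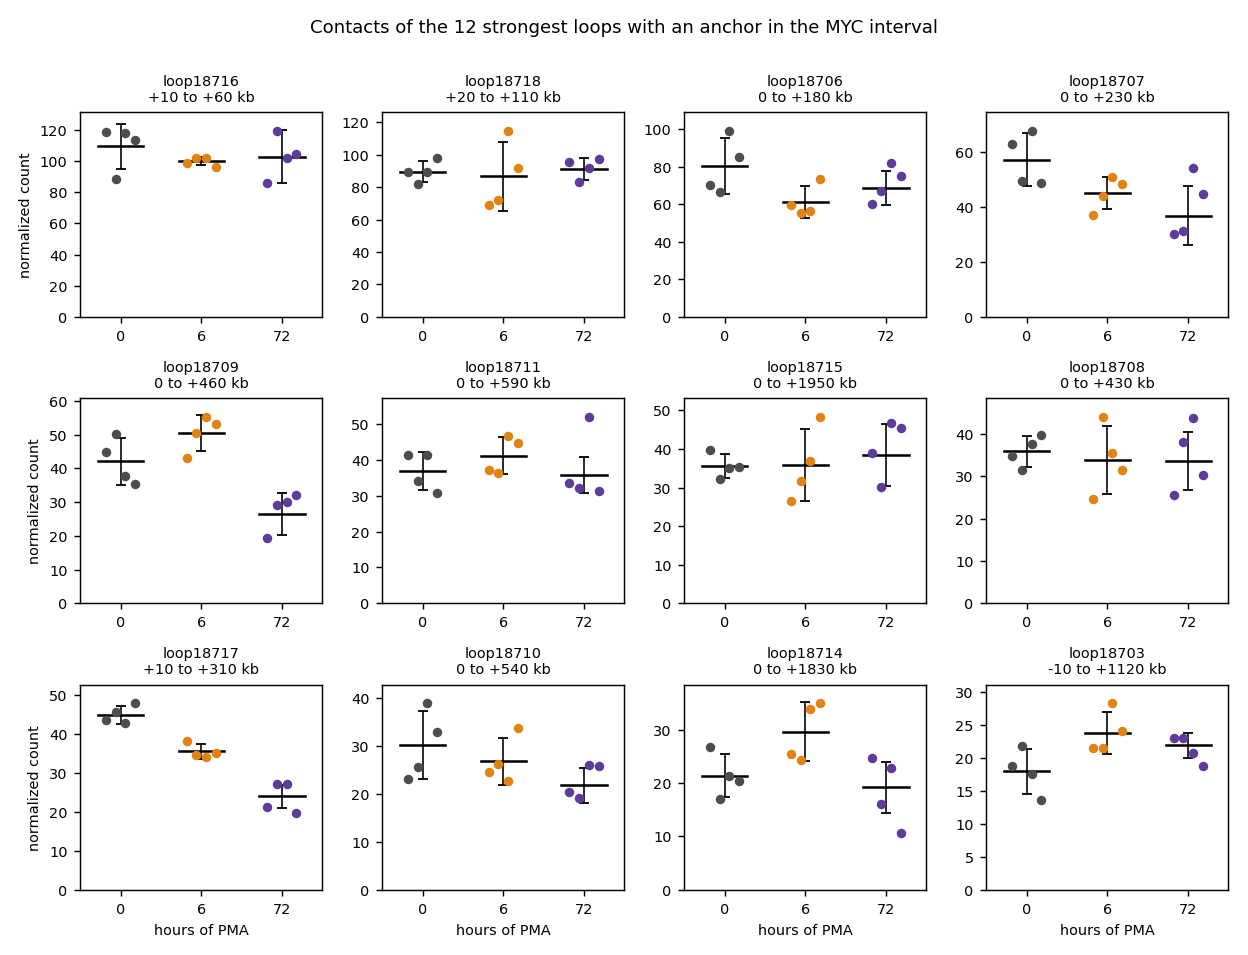
Normalized contact counts (contacts per 1000000 in tested loops) of the 12 strongest loops with an anchor in the MYC interval, against hours of PMA; each point is a library, the bar is the mean and the whisker the SD (n = 4 at 0 h and 6 h, n = 3 at 72 h, where replicates 3 and 4 count as 1), and titles give anchor centres in kb from the MYC start. Loop18717 steps down at each time without overlap, loop18709 is lowest at 72 h after a highest value at 6 h, and loop18716 and loop18718 stay level.

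Beyond PVT1, the MYC start anchor met a series of sites with differing courses. Loop18709 (chr8:128190001-128200000, 460 kb) had normalized counts of 44.9, 50.3, 37.6 and 35.2 at 0 h, 43.1, 50.5, 55.2 and 53.1 at 6 h and 19.5, 29.1, 30.2 and 32.1 at 72 h. All 72 h libraries lay below all 0 h and all 6 h libraries. Its log2 fold change was 0.22 ± 0.15 (SE; adjusted p = 0.45) at 6 h, -0.60 ± 0.17 (SE; adjusted p = 0.00296) at 72 h and -0.81 ± 0.17 (SE; adjusted p = 1.18e-04) from 6 h to 72 h. Against 0 h the 72 h change was -0.94 (adjusted p = 8.80e-04) within replicates 1 and 2 and -0.21 (adjusted p = 0.602) within replicates 3 and 4. From 6 h to 72 h it was -0.92 (adjusted p = 0.00386) within replicates 1 and 2 and -0.75 (adjusted p = 0.0237) within replicates 3 and 4.

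The loops to neighbouring sites of similar distance had no called change at 72 h. Loop18708, which ends 30 kb before it (chr8:128160001-128170000, 430 kb), had 35.9 ± 3.67 (SD, n = 4) at 0 h, 33.8 ± 8.11 (n = 4) at 6 h and 33.6 ± 6.91 (n = 3) at 72 h, with a log2 fold change of -0.06 ± 0.17 (SE; adjusted p = 0.815) at 72 h. Loop18711 (chr8:128320001-128330000, 590 kb) had 36.9 ± 5.33 (SD, n = 4) at 0 h, 41.3 ± 5.17 (n = 4) at 6 h and 35.8 ± 5.11 (n = 3) at 72 h, and its change was -0.01 ± 0.16 (SE; adjusted p = 0.965). Loop18710 (chr8:128270001-128280000, 540 kb) had 30.2 ± 7.15 (SD, n = 4) at 0 h, 26.8 ± 4.89 (n = 4) at 6 h and 21.8 ± 3.65 (n = 3) at 72 h, and its change of -0.32 ± 0.19 (SE; adjusted p = 0.179) did not pass the test. So of the 4 loops that led from the MYC start to this gene-poor stretch just past PVT1, 1 fell and 3 did not pass the test. The differences between these loops were not themselves tested.

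The 3 loops between the MYC interval and LINC00824 (chr8:128405269-128564679), a long noncoding RNA gene, all had 72 h changes below 0, and those of loop18698 and loop18700 were the lowest of the interval. Loop18698 (chr8:127710001-127720000 to chr8:128490001-128500000, 780 kb) had normalized counts of 26.8, 30.4, 17.6 and 31.8 at 0 h, 30.4, 15.9, 18.4 and 20.5 at 6 h and 11.5, 9.04, 17.7 and 8.93 at 72 h. Loop18700 (chr8:127720001-127730000 to chr8:128460001-128470000, 740 kb) had 16.7, 15.2, 12.5 and 14.8 at 0 h, 19.6, 17.8, 17 and 10.9 at 6 h and 2.65, 7.03, 4.16 and 11.6 at 72 h. In the former only replicate 3 of 72 h reached the lowest 0 h library, and in the latter all 72 h libraries lay below all of 0 h. Both start within CASC11, upstream of the MYC start.

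Loop18698 fell to a log2 fold change of -1.09 ± 0.22 (SE; adjusted p = 3.71e-05) at 72 h, and its 6 h value of -0.30 (adjusted p = 0.421) did not pass the test. Its 72 h change was -1.33 (adjusted p = 3.88e-04) within replicates 1 and 2 and -0.84 (adjusted p = 0.0484) within replicates 3 and 4. Loop18700 fell to -1.02 ± 0.28 (SE; adjusted p = 0.00195), with -1.47 (adjusted p = 0.00281) within replicates 1 and 2 and -0.62 (adjusted p = 0.278) within replicates 3 and 4. Its change from 6 h to 72 h was -1.14 ± 0.28 (SE; adjusted p = 0.00136), while that of loop18698 was -0.78 ± 0.24 (SE; adjusted p = 0.0109) and was lost without replicate 1 of 6 h (adjusted p = 0.139). Loop18712, from the MYC start to chr8:128540001-128550000 (810 kb), had 20.4 ± 5.41 (SD, n = 4) at 0 h, 23 ± 4.18 (n = 4) at 6 h and 13.9 ± 0.984 (n = 3) at 72 h. Its 72 h libraries all lay below those of 0 h, yet its change of -0.48 ± 0.22 (SE; adjusted p = 0.0862) did not pass the test. It fell from 6 h to 72 h by 0.69 on the log2 scale (adjusted p = 0.0183), a call lost without replicate 1 of 6 h (adjusted p = 0.0973). With the correction for loop length its 72 h change was -0.70 (adjusted p = 0.00989).

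The next anchors downstream held no gene of the list. Loop18701 (chr8:127720001-127730000 to chr8:128640001-128650000, 920 kb) had 19.1 ± 5.31 (SD, n = 4) at 0 h, 18.6 ± 4.18 (n = 4) at 6 h and 11.2 ± 0.753 (n = 3) at 72 h and fell to -0.66 ± 0.24 (SE; adjusted p = 0.0226) at 72 h. This call was lost without replicate 4 of 0 h (adjusted p = 0.114) and without replicate 3 of 72 h (adjusted p = 0.0551). Its fall from 6 h (-0.66 ± 0.24 (SE; adjusted p = 0.0413)) was lost without any 1 of replicates 1 and 4 of 6 h and 1, 2 and 3 of 72 h, with adjusted p-values of 0.0575 to 0.152. Loop18703, to chr8:128850001-128860000 (1130 kb), had 18 ± 3.39 (SD, n = 4) at 0 h, 23.9 ± 3.20 (n = 4) at 6 h and 22 ± 1.89 (n = 3) at 72 h and a 72 h change of 0.21 ± 0.21 (SE; adjusted p = 0.457). Loop18699, loop18702 and loop18704, of 1010 kb, 1060 kb and 1180 kb, had 72 h changes of -0.22, -0.09 and 0.06 with adjusted p-values of 0.528, 0.84 and 0.893. Loop18705 (1290 kb) had 4.67 to 11 normalized counts per library and was not tested.

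**Figure D3:**
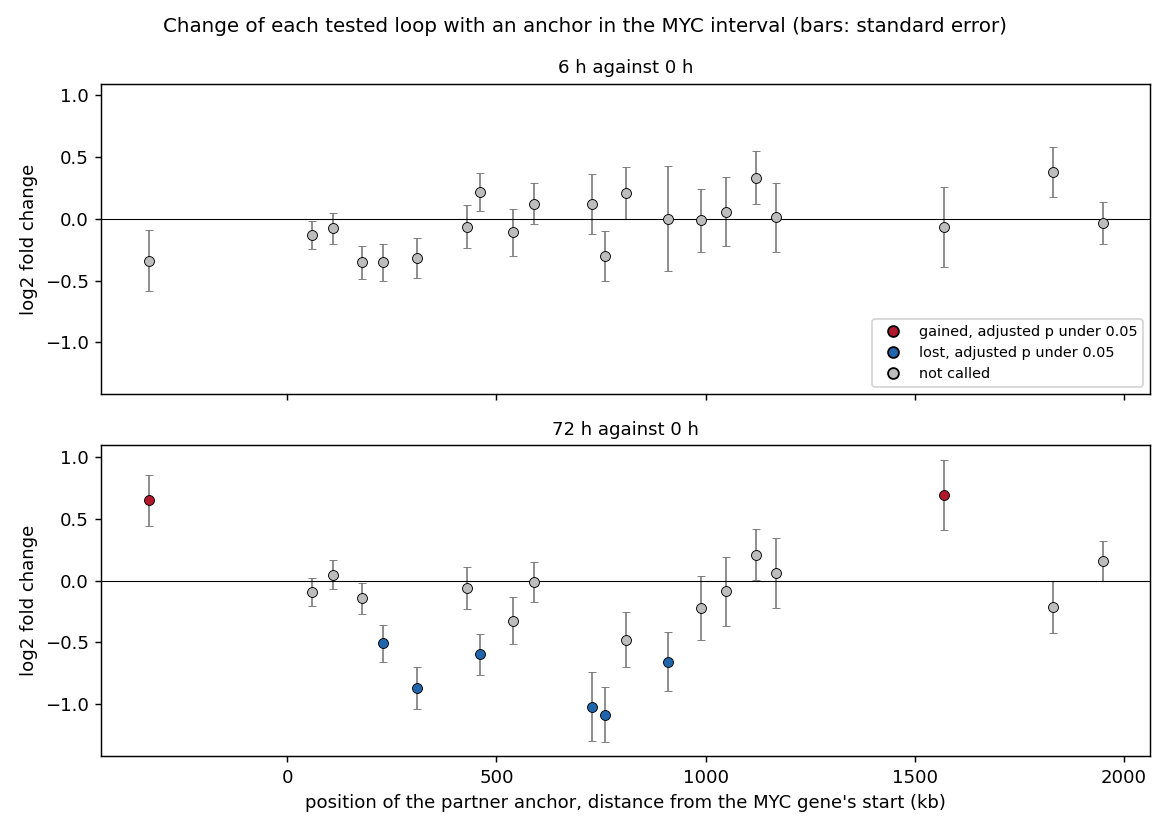
Log2 fold change of the 21 tested loops with an anchor in the MYC interval against the distance in kb of the partner anchor's centre from the MYC start, at 6 h (upper panel) and 72 h (lower panel) against 0 h; each point is a loop and its bar the standard error. No loop is called at 6 h; at 72 h the 6 lost loops end 230 to 910 kb downstream, interspersed with loops that were not called, and of the 2 gained loops 1 ends upstream of MYC and the other 1570 kb downstream.

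The long loops from MYC to the CCDC26 region, where the blood enhancers lie, did not pass the test against 0 h. Loop18715, of 1950 kb between the MYC start and the end of CCDC26 (chr8:129680001-129690000), had normalized counts of 39.8, 32.3, 35.1 and 35.2 at 0 h, 26.5, 31.8, 36.8 and 48.3 at 6 h and 38.9, 30.1, 46.8 and 45.5 at 72 h. The times overlapped, and the 3 means lay within 1 SD of each other at 35.6 ± 3.13 (SD, n = 4) at 0 h, 35.8 ± 9.30 (n = 4) at 6 h and 38.4 ± 8.03 (n = 3) at 72 h. Its change was -0.03 ± 0.17 (SE; adjusted p = 0.944) at 6 h and 0.16 ± 0.16 (SE; adjusted p = 0.469) at 72 h. Its mean count lay at the 94 percentile of loops within 10% of its length, of which there were 100. Those loops had a median 72 h change of 0.58, and 11% of them lay below it. With the correction for loop length its 72 h change was -0.35 (adjusted p = 0.0874).

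Loop18714, from the MYC start to the body of CCDC26 (chr8:129560001-129570000, 1830 kb), had normalized counts of 26.8, 17.1, 21.3 and 20.5 at 0 h, 25.5, 24.3, 34 and 35 at 6 h and 24.8, 16.1, 22.9 and 10.7 at 72 h. It was highest at 6 h in replicates 3 and 4 and lowest in replicate 4 of 72 h. Neither change from 0 h passed the test (0.38 ± 0.20 (SE; adjusted p = 0.271) at 6 h and -0.22 ± 0.21 (SE; adjusted p = 0.447) at 72 h), but with the length correction the 72 h value was -0.69 (adjusted p = 0.00698). From 6 h to 72 h the loop fell by 0.59 on the log2 scale (adjusted p = 0.0268), a call lost without replicate 3 (0.0712) or 4 (0.0984) of 6 h and without replicate 2 (0.073) or 4 (0.171) of 72 h. Loop18713, from the MYC start to a site before CCDC26 (chr8:129300001-129310000, 1570 kb), had 7.49 ± 1.97 (SD, n = 4) at 0 h, 7.13 ± 4.30 (n = 4) at 6 h and 12.2 ± 3.56 (n = 3) at 72 h and rose at 72 h (0.70 ± 0.28 (SE; adjusted p = 0.0459)). This call rested on few contacts: it was lost without any 1 of 7 libraries (replicates 1, 2 and 3 of 0 h, 1 of 6 h, and 1, 3 and 4 of 72 h, adjusted p-values of 0.0517 to 0.206) and with the length correction (0.29 (adjusted p = 0.458)).

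The single upstream loop of the MYC interval rose late. Loop18696 joined the noncoding gene CCAT2 (chr8:127400001-127410000) to CASC11 (chr8:127710001-127720000, 310 kb) and had normalized counts of 21.7, 13.3, 15.1 and 12.5 at 0 h, 12.7, 10.3, 17 and 10.9 at 6 h and 23.9, 27.1, 33.3 and 23.2 at 72 h. All 72 h libraries lay above all libraries of the other times. Its log2 fold change was -0.34 ± 0.25 (SE; adjusted p = 0.457) at 6 h, 0.65 ± 0.21 (SE; adjusted p = 0.00911) at 72 h and 0.99 ± 0.23 (SE; adjusted p = 5.31e-04) from 6 h to 72 h. Against 0 h the call was lost without replicate 3 of 72 h (adjusted p = 0.0558), and the change was 0.44 (adjusted p = 0.259) within replicates 1 and 2 and 0.91 (adjusted p = 0.0255) within replicates 3 and 4.

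Inside PVT1, both loops fell by 6 h and were lower than at 0 h also at 72 h. Loop18726 (chr8:127960001-127970000 to chr8:128050001-128060000, 90 kb) started at the MIR1205 anchor and had normalized counts of 87.6, 58.9, 74 and 61.4 at 0 h, 61.8, 38.3, 46.7 and 43.4 at 6 h and 31, 30.1, 36.4 and 27.7 at 72 h. Loop18723 (chr8:127900001-127910000 to chr8:128040001-128050000, 140 kb) ended at the MIR1207 anchor and had 60.1, 50.3, 59 and 63.7 at 0 h, 37.3, 38.3, 42.5 and 33.8 at 6 h and 29.2, 28.1, 25 and 29.5 at 72 h. In loop18723 each time lay below the one before without overlap, and in loop18726 replicate 1 of 6 h overlapped the 0 h libraries.

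Loop18726 fell by 0.57 at 6 h (log2, SE 0.14, adjusted p = 0.00548) and by 1.15 at 72 h (SE 0.15, adjusted p = 1.42e-10). Its 6 h call was lost without replicate 1 of 0 h (adjusted p = 0.126) and without replicate 2 of 6 h (0.0637), and its fall of 0.58 from 6 h to 72 h (adjusted p = 0.00659) without replicate 1 of 6 h (0.105). None of the 434 tested loops within 10% of its length had a lower 72 h value. Loop18723 fell by 0.60 at 6 h (SE 0.15, adjusted p = 0.00637) and by 1.00 at 72 h (SE 0.16, adjusted p = 6.13e-08). Its change of -0.41 ± 0.17 (SE; adjusted p = 0.0817) from 6 h to 72 h did not pass the test. At 72 h the change of loop18726 was -1.26 (adjusted p = 1.13e-07) within replicates 1 and 2 and -1.04 (adjusted p = 9.90e-05) within replicates 3 and 4, and that of loop18723 was -0.93 (adjusted p = 3.89e-04) within replicates 1 and 2 and -1.10 (adjusted p = 7.99e-05) within replicates 3 and 4.

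The MIR1207 anchor (chr8:128040001-128050000) took part in 4 tested loops, to MYC, within PVT1 and to CCDC26, and all 4 had 72 h values below 0, 2 of them lost. The MIR1205 anchor (chr8:127960001-127970000) took part in 3, again all below 0 with 2 lost. Over all tested loops 16.9% were lost at 72 h and 11832 of 24132 had values below 0. Loop18726, counted at the MIR1205 anchor, ends right next to the MIR1207 anchor, so the 2 counts are not separate. No test was made per anchor, and these anchors were not set by the naming rule. Another loop that starts in PVT1 did the opposite at 6 h: loop18720, to a site just past PVT1 (chr8:127890001-127900000 to chr8:128170001-128180000, 280 kb), had normalized counts of 19.6, 31.3, 22.6 and 13.6 at 0 h, 38.2, 29.9, 38.2 and 33.8 at 6 h and 27.4, 22.1, 31.2 and 28.6 at 72 h. It was the only domain loop gained at 6 h (0.62 ± 0.19 (SE; adjusted p = 0.0288)), and at 72 h its change was 0.30 ± 0.19 (SE; adjusted p = 0.234). The 6 h call was lost without replicate 1 (0.139) or 4 (0.143) of 0 h and without replicate 1 (0.103) or 3 (0.0721) of 6 h.

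**Figure D4:**
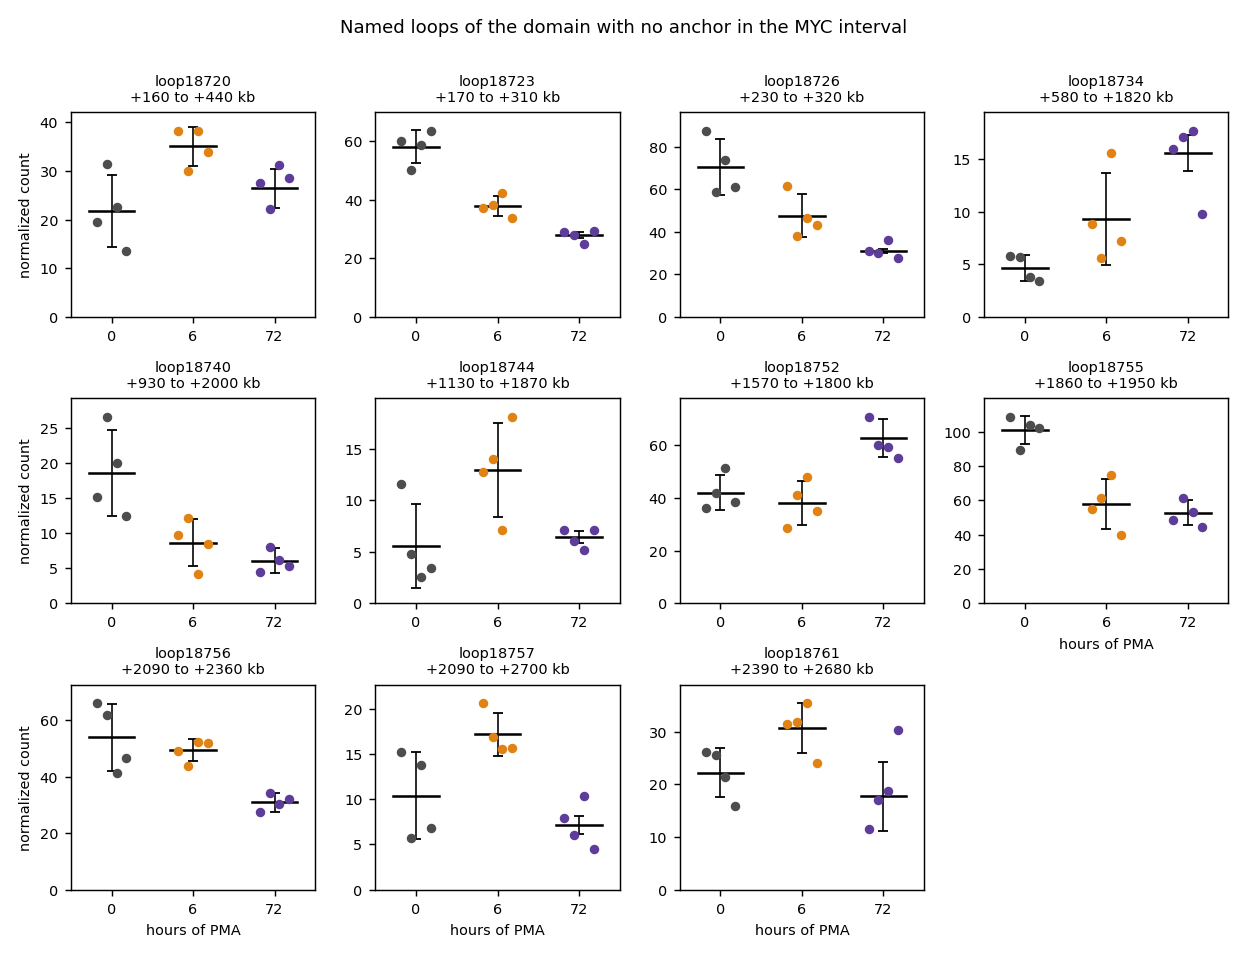
Normalized contact counts (contacts per 1000000 in tested loops) of the 11 named domain loops with no anchor in the MYC interval, against hours of PMA; each point is a library, the bar is the mean and the whisker the SD (n = 4 at 0 h and 6 h, n = 3 at 72 h, where replicates 3 and 4 count as 1), and titles give anchor centres in kb from the MYC start. Loop18723, loop18726, loop18740 and loop18755 are already lower at 6 h, loop18752 rises only at 72 h, and loop18744, loop18757 and loop18761 are highest at 6 h.

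The 4 tested loops from PVT1 to CCDC26, a group picked after its values had been seen, had 72 h changes below 0, while the median over loops of their length was above 0. There were 5 loops between the 2 gene bodies, and 4 of them were tested. The untested one, loop18719, went otherwise, with normalized counts of 3.62, 2.85, 5.02 and 7.96 at 0 h, 16.7, 9.35, 18.4 and 14.5 at 6 h and 9.73, 7.03, 3.12 and 6.25 at 72 h: all 6 h libraries lay above all of 0 h, and those of 72 h overlapped both. The 72 h changes of the tested loops were -0.32 (loop18721), -0.37 (loop18725), -0.42 (loop18729) and -0.55 (loop18730), with adjusted p-values of 0.087 to 0.348, so that 0 passed the test with edgeR (1 at an unadjusted p under 0.05) and 0 with DESeq2. Loops within 10% of the length of each had median 72 h changes of 0.56, 0.55, 0.52 and 0.56. With the length correction the values were -0.75 (adjusted p = 0.0178), -0.80 (adjusted p = 0.00809), -0.80 (adjusted p = 0.0253) and -0.97 (adjusted p = 0.0016).

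At the CCDC26 end, the short loops inside the gene were lower at 72 h than at 0 h. Loops that enter it from the MYC side rose or did not pass the test at 72 h, a balance that turned with the length correction. Loop18755, between the body and the end of CCDC26 (chr8:129590001-129600000 to chr8:129680001-129690000, 90 kb), had normalized counts of 109, 89.2, 104 and 102 at 0 h, 54.9, 61.7, 75 and 39.8 at 6 h and 48.7, 61.2, 53 and 44.6 at 72 h. All 6 h and 72 h libraries lay below all of 0 h, and the later times overlapped each other. It fell by 0.80 at 6 h (log2, SE 0.13, adjusted p = 4.81e-06), and its value was -0.95 ± 0.13 (SE; adjusted p = 6.03e-10) at 72 h. At 6 h the change was -0.77 (adjusted p = 0.00226) within replicates 1 and 2 and -0.86 (adjusted p = 0.00479) within replicates 3 and 4. From 6 h to 72 h its change of -0.15 (adjusted p = 0.499) did not pass the test. The longer loop18754 to the same end anchor (chr8:129540001-129550000, 140 kb) was at -0.38 ± 0.14 (SE; adjusted p = 0.0207) at 72 h.

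Of the 19 tested loops that enter CCDC26 from sites between the MYC interval and the gene, or from within PVT1, 4 were gained and 0 lost at 72 h with edgeR (4 and 1 at an unadjusted p under 0.05), and 3 gained and 0 lost with DESeq2. Over all tested loops 16.7% were gained and 16.9% lost. The 20 loops of this kind, tested or not, had a median length of 850 kb. Of all tested loops over 500 and up to 1000 kb, 19.3% were gained and 4.9% lost, and above 1000 kb 34.9% and 1.73%. With the length correction the balance turned, to 3 gained and 4 lost of the 19, where the 4 lost were the loops from PVT1 to CCDC26 above. Loop18752 (chr8:129300001-129310000 to chr8:129530001-129540000, 230 kb) had normalized counts of 36.2, 41.8, 51.4 and 38.7 at 0 h, 28.4, 41.1, 48.1 and 35 at 6 h and 70.8, 60.2, 59.3 and 55.3 at 72 h. All 72 h libraries lay above those of both other times. It did not pass the test at 6 h (-0.13, adjusted p = 0.721) and rose at 72 h (0.56 ± 0.14 (SE; adjusted p = 0.00125)), with 0.73 (adjusted p = 0.00261) within replicates 1 and 2 and 0.34 (adjusted p = 0.252) within replicates 3 and 4. Loop18734 (chr8:128310001-128320000 to chr8:129550001-129560000, 1240 kb) had 5.79, 5.70, 3.76 and 3.41 at 0 h, 8.82, 5.61, 15.6 and 7.24 at 6 h and 15.9, 17.1, 17.7 and 9.82 at 72 h normalized counts. It rose at 72 h by 1.31 ± 0.29 (SE; log2, adjusted p = 1.63e-04), the highest value of the domain, from a low base of contacts.

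Loop18749 and loop18750, which were also gained at 72 h, end at chr8:129670001-129680000 and chr8:129530001-129540000 in CCDC26 and had changes of 0.62 (adjusted p = 0.0193) and 0.71 (adjusted p = 0.00177). With the length correction the call of loop18749 was lost (0.46 (adjusted p = 0.0939)). Both of these, and loop18719, loop18732, loop18736, loop18754 and loop18760 were named after their values were seen, to complete the account. The anchor chr8:129530001-129540000 in CCDC26 took part in 4 tested loops, all with 72 h values above 0 and 2 gained. Over all tested loops 12300 of 24132 had 72 h values above 0 and 16.7% were gained. Loop18744 (chr8:128860001-128870000 to chr8:129600001-129610000) was highest at 6 h, with 5.56 ± 4.12 (SD, n = 4) at 0 h, 13 ± 4.55 (n = 4) at 6 h and 6.42 ± 0.571 (n = 3) at 72 h. Its change was 0.88 ± 0.30 (SE; adjusted p = 0.0572) at 6 h and -0.85 ± 0.30 (SE; adjusted p = 0.0289) from 6 h to 72 h. The latter call was lost without any 1 of replicates 1, 2 and 4 of 6 h and 2 and 3 of 72 h (adjusted p of 0.0533 to 0.123).

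Some loops between CCDC26's surroundings and gene-poor stretches also changed. Loop18740 (chr8:128660001-128670000 to chr8:129730001-129740000, 1070 kb) passes over CCDC26 and ends in GSDMC, a gasdermin gene. Its normalized counts were 15.2, 26.6, 20.1 and 12.5 at 0 h, 9.80, 12.1, 4.25 and 8.44 at 6 h and 4.42, 8.03, 6.24 and 5.36 at 72 h. All libraries of 6 h and 72 h lay below all of 0 h. It fell by 0.89 at 6 h (log2, SE 0.26, adjusted p = 0.0239) and by 1.37 at 72 h (SE 0.27, adjusted p = 2.24e-05), the lowest value of the domain. Loops of its length had a median of 0.36 at 72 h. The 6 h call was lost without replicate 2 (0.152) or 3 (0.052) of 0 h and without replicate 3 of 6 h (0.0866). Loop18732 and loop18736, which lie in the gene-poor stretch past the end of PVT1, were gained at 72 h with 0.47 (adjusted p = 0.0333) and 0.65 (adjusted p = 0.0363). With the length correction the call of loop18736 was lost (0.59 (adjusted p = 0.066)).

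Past the enhancer region, the 6 loops around CYRIB, a regulator of the actin cytoskeleton, and ASAP1, which encodes a GTPase-activating protein for Arf, all had 72 h values below 0, and 2 were lost, where 16.9% of all tested loops and 21.2% of those of up to 500 kb were lost. Loop18756 (chr8:129820001-129830000 to chr8:130090001-130100000, 270 kb), which spans CYRIB, had normalized counts of 65.9, 61.7, 41.4 and 46.6 at 0 h, 49, 43.9, 52.4 and 51.9 at 6 h and 27.4, 34.1, 30.2 and 32.1 at 72 h. All 72 h libraries lay below those of both other times. Its change was -0.81 ± 0.16 (SE; adjusted p = 1.18e-05) at 72 h, with -1.04 (adjusted p = 3.10e-05) within replicates 1 and 2 and -0.47 (adjusted p = 0.147) within replicates 3 and 4, and -0.63 ± 0.16 (SE; adjusted p = 0.00277) from 6 h to 72 h. Loop18760, between CYRIB and ASAP1, was at -0.51 ± 0.15 (SE; adjusted p = 0.00386) at 72 h. Loop18757 and loop18761, which reach deep into ASAP1, were highest at 6 h: loop18757 had 10.4 ± 4.82 (SD, n = 4) at 0 h, 17.2 ± 2.35 (n = 4) at 6 h and 7.14 ± 1.00 (n = 3) at 72 h and loop18761 had 22.2 ± 4.73 (SD, n = 4) at 0 h, 30.7 ± 4.71 (n = 4) at 6 h and 17.7 ± 6.54 (n = 3) at 72 h. From 6 h to 72 h they fell by 1.08 (log2, adjusted p = 0.00194) and 0.60 (adjusted p = 0.0222). The call of loop18761 was lost without replicate 1 (0.0515) or 3 (0.0584) of 6 h and without replicate 1 (0.162) or 2 (0.0611) of 72 h.

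Loop length moved with the change at 72 h over the whole table, so the loops were set beside loops of their own length. Over all tested loops the median 72 h change was -0.06 up to 500 kb, 0.19 over 500 and up to 1000 kb and 0.45 above that. The 6 tested MYC interval loops of 500 to 1000 kb had a median of -0.57, all were below 0, 3 were lost and 0 gained with edgeR (4 and 0 at an unadjusted p under 0.05), and 2 were lost and 0 gained with DESeq2. In that length class 4.9% of all tested loops were lost and 19.3% gained. The 7 tested loops above 1000 kb had a median of 0.06 with 1 gained, where 34.9% of all tested loops of that class were gained and 1.73% lost. The 8 loops of up to 500 kb had a median of -0.12, with 1 gained and 3 lost, where 14.7% were gained and 21.2% lost. These length classes were set after the length trend was known, and no test was made of the difference.

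**Figure D5:**
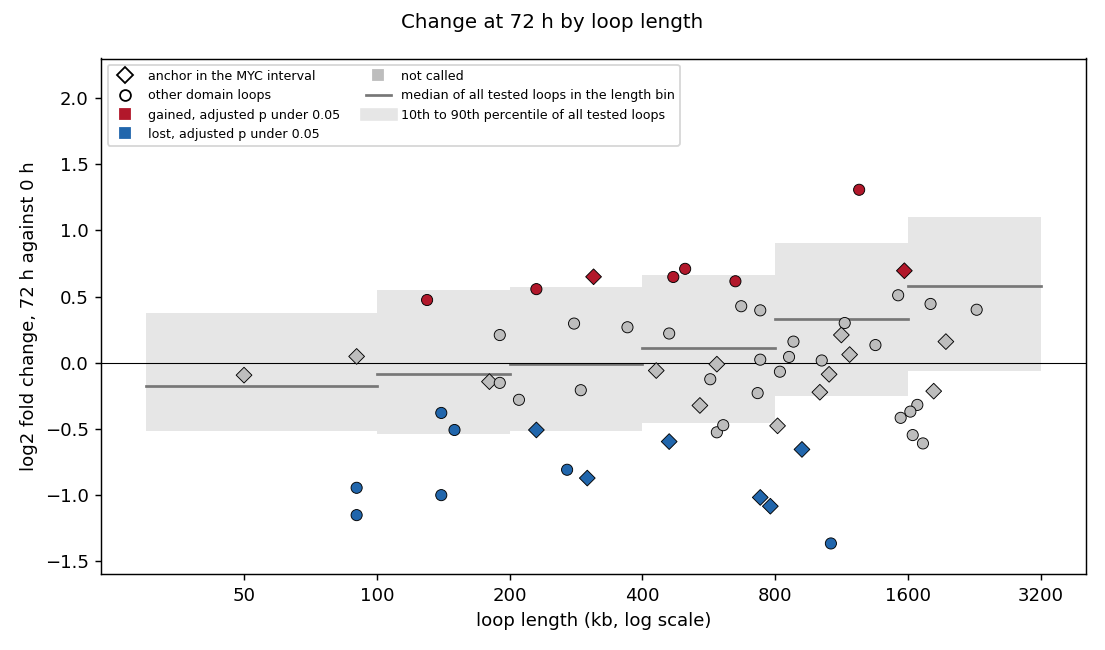
Log2 fold change at 72 h against 0 h of the 62 tested domain loops against loop length in kb on a log scale; diamonds have an anchor in the MYC interval and circles do not, grey steps show the median of all tested loops in each length bin and the shaded boxes their 10th to 90th percentile. Lost loops of the MYC interval between 740 and 920 kb lie below the shaded range, in which the median is above 0.

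DESeq2 ended some of these calls. Of the named domain loops called at 6 h, loop18755 within CCDC26 was also called by DESeq2, while the adjusted p with DESeq2 was 0.179 for loop18720, 0.0813 for loop18723, 0.101 for loop18726 and 0.162 for loop18740. At 72 h it ended the calls of loop18696 (0.0577), loop18701 (0.0826) and loop18713 (0.152) among the named loops of the MYC interval. Between the later times it ended those of loop18698 (0.0692), loop18701 (0.147), loop18712 (0.0978), loop18714 (0.119), loop18717 (0.0883), loop18744 (0.133) and loop18761 (0.116).

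The share of each library's contacts that fell in domain loops was lower at 72 h than at 0 h. It was 0.172% ± 0.0022 (SD, n = 4) at 0 h, 0.164% ± 0.0039 (n = 4) at 6 h and 0.155% ± 0.0081 (n = 3) at 72 h. The highest 72 h library, replicate 3, had 0.169%, against 0.170% in the lowest 0 h library, and the other 72 h libraries had 0.146%, 0.156% and 0.156%. Loops with an anchor in the MYC interval held 0.0704% ± 0.0033, 0.0684% ± 0.0038 and 0.0617% ± 0.0064. They made up 41.0%, 41.7% and 39.8% of the domain's contacts at the 3 times. Of the contacts in loops of chromosome 8, the domain held 3.88% ± 0.090, 3.62% ± 0.097 and 3.23% ± 0.16. These shares rest on 1245 to 2572 contacts per library in domain loops.

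Replicates 1 and 2 and replicates 3 and 4 differed in library structure, so their changes were also compared. The difference between the 2 sets in the 6 h change had an unadjusted p under 0.05 for 3 of 62 domain loops, with a lowest adjusted p of 0.863 (edgeR), and in the 72 h change also for 3, with a lowest adjusted p of 0.713. Over all tested loops 5.57% and 6.09% reached that unadjusted p. The 3 loops at 72 h were loop18761, loop18707 and loop18709, whose unadjusted p-values were 0.00408, 0.0296 and 0.0335.

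In the authors' deposited table, whose adjusted p is the same in the columns of both times, 6 of the 71 domain loops were classed as lost, none as gained and 65 as static. The 6 lost in the authors' deposited table were loop18698, loop18717, loop18723, loop18726, loop18755 and loop18756, which were also lost at 72 h here. Loop18698 and loop18717 have an anchor in the MYC interval. The authors' deposited table gives an adjusted p under 0.05 to 9 of the 37 domain loops for which it holds one. The shares of these classes and of such adjusted p-values over all loops are not given here. The counts therefore cannot be read as particular to the domain.

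Genes of the MYC protein network were looked up for comparison. Of 12 genes (the partner MAX, its other partners, relatives of MYC, and MLX, MLXIP and MLXIPL of the same network), 6 had an end in a loop anchor, in 13 tested loops. At 6 h 0 of these changed with edgeR (2 at an unadjusted p under 0.05) or DESeq2, and at 72 h 2 were gained and 5 lost, where 6.41% and 33.6% of all tested loops changed at these times. The median 72 h change of the 13 loops was -0.24 (log2). The gained loops both started at MYCN, a close relative of MYC: loop3352 had normalized counts of 23.2, 22.8, 16.3 and 20.5 at 0 h, 29.4, 18.7, 21.2 and 18.1 at 6 h and 32.7, 52.2, 39.5 and 30.3 at 72 h and a 72 h change of 0.80, and loop3353 one of 0.74. The lost loops ended at MXD3 (-0.48 and -0.36) and MXI1 (-0.55), which encode repressors that bind MAX, at MNT (-0.32), another such repressor, and at MYCL (-0.29), a further relative. The call at MXI1 was lost without replicate 2 of 0 h (adjusted p = 0.169) or without replicate 1 (0.112) or 3 (0.0974) of 72 h, and that at MYCL without replicate 4 of 0 h (0.0665) or 2 of 72 h (0.0573). With the length correction the calls at MYCL (0.0956) and of the weaker MXD3 loop (0.0591) were lost, and with DESeq2 that at MXI1 (0.115).

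Loops elsewhere with an end of a protein-coding gene whose normalized log2 counts most resembled those of loop18716, the MYC to PVT1 loop, were loop23697 at AQP6 on chromosome 12 (Pearson r = 0.89 over the 12 libraries) and loop21804 at MYBPC3 and SPI1 on chromosome 11 (0.83). They were picked as the highest among such loops and share libraries and depth with it.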

How the data were processed

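In situ Hi-C contacts were counted in 42 samples of K562 cells, 14 at each time of PMA treatment. Per the file headers, the table that the authors deposited lists 33914 loops and holds raw counts of contacts in 30 columns, where a technical replicate has 1 column and its sequencing runs are joined. The submitters' processing notes name Juicer 1.5.6, DESeq2 and hg38, while the loop caller is not given in the sources used here. The authors' deposited log2 fold changes, p-values (adjusted, and the same in both columns) and classes were only described. The members and gene lists were chosen with earlier results of these data known.

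Columns were summed into 12 libraries and fitted in R 4.3.3 with edgeR 4.0.16 (filterByExpr with minimum count 10 and total 15, TMM, quasi-likelihood test, prior count 2, Benjamini-Hochberg adjustment over 24132 loops, threshold 0.05), in 1 model over the 3 times with no covariate, so that all libraries share 1 estimate of the spread. Standard errors were taken as the absolute fold change over the square root of F. Loops that rose or fell past the threshold are called gained or lost. A count includes the background of its pixel. The comparisons at 6 h and at 72 h share the 0 h libraries. On simulated counts of 24132 loops with 200 changed, the test called 82% of 2-fold changes and 43% of 1.5-fold changes, and 6 of its 131 calls were false. The alternatives comprised DESeq2 1.42.0, changed scalings and filters, a length offset (loess, span 0.3), a replicate block, a batch term and leaving out each library.

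Loops were named by this rule: all with an anchor in the MYC interval, of which the 12 strongest are given in full; of the others the 5 with the largest called change in each comparison; the 3 strongest of the domain; 3 loops elsewhere that most resemble the strongest, of which 1 is not reported here; and up to 6 loops of MYC network genes. Gene positions came from RefSeq (GRCh38.p14), which carries no strand here; a gene is placed at an anchor that holds either of its ends. Positions count from 1.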

Additional observations from a re-analysis of the deposited data

Results flagged for a closer look

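In 2 of 84 groups of 4 libraries examined, 1 library stood apart from the others (Dixon's test), where chance gives about 1 in 20, or 4.2. For loop18716, between MYC and the start of PVT1, replicate 2 of 0 h had 88.3 normalized counts, while the others had 114 to 119. For loop18704, from CASC11 to a site 1180 kb away, replicate 2 of 6 h had 15.9, while the others had 5.66 to 7.24.

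For 14 named domain loops the change at 72 h differed from the change at 6 h, that is, 72 h against 6 h passed the test (edgeR, adjusted p under 0.05). The share called in this comparison was 22.6% of the 62 tested domain loops and 20.5% of all tested loops, so the count lay near the background. Without replicate 1 of 6 h the domain count was 7. The log2 difference was above 0 for loop18696 (0.99), which leads from CCAT2 to CASC11, and loop18752 (0.68), which enters CCDC26. It was below 0 for the loops of the MYC interval loop18698 (-0.78), loop18700 (-1.14), loop18701 (-0.66), loop18709 (-0.81), loop18712 (-0.69), loop18714 (-0.59) and loop18717 (-0.56). It was also below 0 for loop18726 (-0.58) within PVT1, loop18744 (-0.85) to CCDC26, and loop18756 (-0.63), loop18757 (-1.08) and loop18761 (-0.60) around CYRIB and ASAP1. Among the loops of the MYC network, it was 0.74 for loop3352 and 0.49 for loop3353 at MYCN and -0.38 for loop473 at MYCL. The call of loop3353 was lost without any 1 of replicates 2, 3 and 4 of 6 h and 1, 3 and 4 of 72 h (adjusted p of 0.0535 to 0.162), and under other alternatives up to 0.511.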

How the results depend on the processing

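No named loop reversed its sign in a called change under any alternative run. Of the alternative values of the named loops, 2881 stayed on the same side of the threshold, 128 lost the call and 19 gained one. The count of changed domain loops at 6 h (5) was 1 with DESeq2, 8 with the replicate block, 2 within replicates 1 and 2, 1 within replicates 3 and 4 and 3 at an adjusted p under 0.01. At 72 h (21) it was 12 where loops needed a mean of 20 contacts, which left 27 domain loops tested, and 10 within replicates 3 and 4. From 6 h to 72 h (14) it was 7 with DESeq2, 7 with a mean of 20 contacts, 8 within replicates 1 and 2, 5 within replicates 3 and 4 and 7 at an adjusted p under 0.01. Leaving out 1 library gave 4 to 7, 16 to 24 and 7 to 16 loops. DESeq2 called 340, 4977 and 1979 loops over the whole table, where edgeR called 1546, 8105 and 4945. The causes were not tested. With contacts in loops of chromosome 8 as the denominator the domain's share was 3.88%, 3.62% and 3.23% at 0 h, 6 h and 72 h and that of the MYC interval 1.59%, 1.51% and 1.29%; per contact in tested loops of chromosome 8 outside the domain they were 4.26%, 4.00% and 3.59%, and 1.75%, 1.67% and 1.43%. Shares over tested loops only (an alternative chosen after seeing the data) and those with replicates 3 and 4 of 72 h summed moved by less than 1 SD.

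Libraries of the same replicate number deviated together only weakly (correlations of 0.0146 to 0.124 over loops). Counting error in loops of few contacts keeps such correlations low, so they cannot decide whether the numbers pair the samples. With the replicate block 8, 21 and 15 domain loops changed in the 3 comparisons. Among the named loops, the block ended the 72 h call of loop18713 (adjusted p = 0.052) and added loop18744 at 6 h (0.0398), and it changed no other call. Most domain loops had a mean of fewer than 20 contacts per library, below the median of all tested loops. How often a 1.5-fold change is called in such loops was not simulated. The simulated share of 43% came from all tested loops and from a stricter threshold than that of the 72 h data.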
